A study of Mus musculus with 38 samples.

Results

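The cell cycle and mitosis gene families comprised 112 of the 9890 genes measured in mouse tissue around B16 melanoma. They were chosen by symbol alone: the prefixes of the minichromosome maintenance, origin, polymerase and clamp loader families, the cell division cycle, centromere protein, kinesin, Aurora, Bub and Polo families, the cyclins and the E2F factors, together with the single genes Top2a, Cdk1, Cdk2, Birc5, Tpx2, Nusap1, Pcna, Rrm2 and Tyms. The choice also named the A and B cyclins and Cdk4, but these were not among the genes measured. Another 10 symbols beginning with Cdc42, which belong to a GTPase and its partners, were left out, and each gene was read from its brightest probe. Total RNA of lysed tissue from C57BL/6 mice aged 8 weeks was measured on 38 Illumina bead arrays. The groups were control tissue (7 arrays) and tumor microenvironment tissue taken 4 or 14 days after inoculation of B16-WT (4 and 5 arrays), B16-shTGFb (6 and 5 arrays) or B16-shVEGF cells (5 and 6 arrays). By their names the lines B16-shTGFb and B16-shVEGF carry short hairpin RNAs against TGF-beta and VEGF. B16 is a pigmented melanoma line of C57BL/6 mice, and all inoculated groups shared it as their tumor. The labels leave unsaid which control tissue was taken, which TGF-beta gene was targeted, and whether every array stands for its own animal, so the spread between arrays may in part be technical.

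The genes of the mammalian cell cycle are switched on in order. D cyclins act on the retinoblastoma protein in G1, which frees E2F factors to drive the genes of DNA replication. Origin and Mcm proteins license the DNA, the polymerases and their clamp copy it, and a later wave of genes with B-Myb and FoxM1 at their promoters builds the spindle and the centromere for mitosis. In tissue these messages come mostly from dividing cells, and in a bulk sample fewer dividing cells and less RNA per cell cannot be told apart. Dct encodes dopachrome tautomerase, an enzyme of melanin synthesis that marks pigment cells and pigmented melanoma.

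Between 16519 and 22897 probes per array lay above background at a detection p under 0.05. Precision is limited by how many arrays each group has. Top2a and Cenpa, the chosen markers of the families, were detected on all 38 arrays, as were 94 members in all. The other 18 members were detected on fewer arrays, down to 23 for Kif13b. The genes that the hairpins are named for did not separate these groups: Vegfa lay between 9.08 and 10.68 (log2 of the normalized intensity, used throughout) in the B16-shVEGF groups and between 9.27 and 11.41 in the B16-WT groups, and Tgfb1 between 7.95 and 10.18 in the B16-shTGFb groups and between 8.19 and 10.10 in the B16-WT groups. On 3 arrays, B16-WT day 4 replicate 4 and B16-WT day 14 replicates 2 and 5, decorin (Dcn), the abundant proteoglycan of connective tissue, was not detected, at 4.38 to 4.87 against 12.35 to 14.45 on the other 35. On these 3 arrays all 10 pigment cell markers were detected, but 2 to 4 of 10 connective tissue markers, 1 to 3 of 8 muscle markers, 0 of 4 adipocyte markers, 1 to 2 of 8 macrophage markers and 0 to 1 of 5 endothelial markers. On the other 35 arrays at least 10, 8, 3, 8 and 4 of the same 5 host lists were detected. The 4 arrays control replicate 1, B16-shTGFb day 4 replicate 2, B16-shVEGF day 4 replicate 2 and B16-shVEGF day 14 replicate 2 had Dct at 6.50 to 8.22, while the other 34 had it at 12.05 or more. Pigment markers were also present in the group labelled control: Dct was detected on 7 of 7 control arrays and reached 14.53, the highest of all 38. The labelled control tissue therefore did not lack pigment cell RNA.

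Cenpa, the histone H3 variant that marks the centromere, spanned 10.74 to 12.94 across the 38 arrays. In the control group Cenpa lay between 10.91 and 12.28 with a median of 11.60. The B16-WT arrays read 12.09, 11.05, 12.08 and 12.84 for Cenpa at day 4 and 12.01, 12.90, 12.54, 11.44 and 12.94 at day 14. The 3 highest values of Cenpa were those of the 3 arrays without detected Dcn, and the B16-WT groups still overlapped the controls. In the B16-shTGFb groups Cenpa lay between 11.02 and 12.02 at day 4, with a median of 11.54, and at 11.77, 11.56, 11.87, 11.13 and 12.24 at day 14. In the B16-shVEGF groups Cenpa read 11.39, 11.51, 12.56, 11.48 and 12.42 at day 4 and lay between 10.74 and 12.10, with a median of 11.54, at day 14. All 7 groups overlapped.

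Top2a, the topoisomerase that untangles sister chromatids, lay between 9.66 and 11.20 in the controls, with a median of 10.01. Its B16-WT values were 11.39, 9.97, 10.81 and 10.68 at day 4 and 10.47, 11.11, 10.85, 9.99 and 11.06 at day 14. The highest Top2a value was that of B16-WT day 4 replicate 1, and single control and B16-shVEGF day 14 arrays came near it, so that Top2a did not separate any groups. Top2a lay between 9.62 and 10.82 (median 10.42) in the B16-shTGFb day 4 group and read 10.52, 10.06, 9.76, 9.69 and 11.05 at day 14. It read 9.84, 10.64, 10.96, 9.65 and 10.39 in the B16-shVEGF day 4 group and lay between 9.57 and 11.22 (median 9.83) at day 14. The second Top2a probe followed the brightest one only loosely, with r = 0.34 over the 38 arrays, whereas the second Cenpa probe had r = 0.92.

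Cdk1, the kinase that starts mitosis, lay between 9.10 and 11.09 in the controls (median 9.92) and read 11.01, 9.29, 10.32 and 11.49 in the B16-WT day 4 group. Its B16-WT day 14 values were 10.22, 11.66, 11.67, 9.82 and 11.83. Within that group 3 arrays lay above every control array and 2 lay inside the control range. The highest value of Cdk1 anywhere was 11.87, on B16-shVEGF day 4 replicate 3, where Dcn was detected. The remaining B16-shVEGF day 4 arrays read 9.61, 9.74, 9.73 and 10.63, and the B16-shVEGF day 14 arrays lay between 8.64 and 11.48 with a median of 9.75. In the B16-shTGFb groups Cdk1 lay between 8.64 and 10.40 (median 10.01) at day 4 and at 10.05, 9.79, 10.75, 8.80 and 11.35 at day 14.

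**Figure D1:**
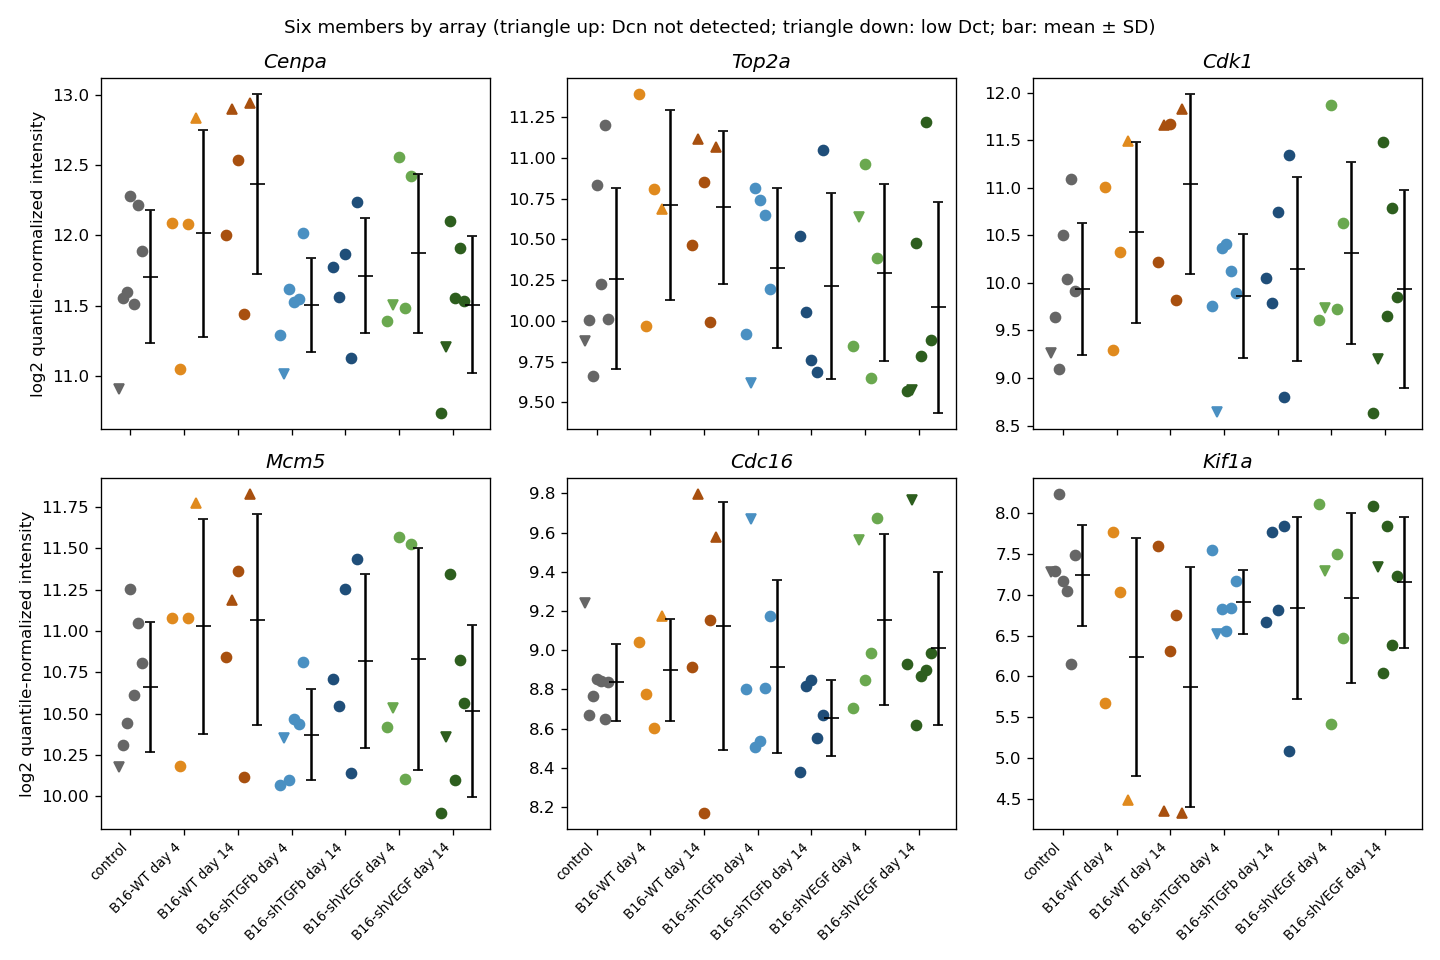
Log2 normalized intensity (y axes) of Cenpa, Top2a, Cdk1, Mcm5, Cdc16 and Kif1a on each array (points) in the 7 groups (x axis), with the group mean and SD as bars, upward triangles for the 3 arrays without detected Dcn and downward triangles for the 4 arrays of low Dct. For Cenpa the 3 upward triangles are the highest points, at 12.84 to 12.94, and for Kif1a they are the lowest, at 4.33 to 4.48. Mcm5 was chosen for the plot after its values were seen.

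Array by array, most members moved with Cenpa. Over the 38 arrays the median Pearson correlation of the other 111 members with Cenpa was 0.69, against 0.05 over all genes, and 41 of them (36.9%) had r above 0.8, against 6.24% of all genes. These correlations describe 38 arrays that share a scanner platform and a normalization and of which 3 stand apart. Over the 35 arrays with Dcn the median was 0.56, and after removing the group means it was 0.64. The members most like Cenpa were Aurka, the kinase of the spindle poles (r = 0.96), and Birc5, the survivin subunit of the chromosomal passenger complex (r = 0.96). Next came Aurkb, the kinase of that complex, Mcm10, which helps to start replication forks, Cdca3, a mitotic entry factor, and Rfc5, a clamp loader subunit, each at r = 0.94. Cdca8, another passenger complex subunit, Kif22, Bub1b, Mcm2 and Plk1 followed at 0.93.

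The likeness differed by role. Licensing and helicase genes (13), the E cyclins with Cdk1 and Cdk2 (4), the mitotic kinases, checkpoint genes and Cdc25 phosphatases (14), and the spindle and chromosome proteins (10) each had a median r with Cenpa of 0.83. The 9 mitotic kinesins had a median of 0.84, the 11 polymerase, clamp loader and nucleotide genes 0.80, and the other centromere proteins 0.71. Lower medians were found for the 6 E2F factors (0.50) and the 3 D cyclins (0.35). The 4 genes of the anaphase-promoting complex and ubiquitin enzymes, though of mitosis in part, had a median of only 0.16. Of the activating factors, E2f1 and E2f3 had r of 0.87 and 0.90 and E2f2 had 0.06. Ccne2 (0.15), Ccnd2 (0.11) and Cdca7 (0.03) were also unlike Cenpa. Pcna, the sliding clamp of replication, had r = 0.68 and was detected on 32 of 38 arrays.

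The other kinesins, which here are all remaining symbols starting with Kif, went in both directions. These 16 had a median r of 0.16, and 7 of them were negative, while Kif3c (0.81) and Kif24 (0.73) were high. Kif1a, a motor of vesicle transport known from axons, had the lowest r of all members (-0.78), followed by Cdcp1, a membrane protein that the prefix took in (-0.75), Kif1b (-0.73), Kifc2 (-0.69) and Kif13a (-0.69). Of the 12 members with negative r, the remainder included Kif1c (-0.56), Cdc23 (-0.55), a subunit of the anaphase-promoting complex, Kif21a (-0.51), Plk3 (-0.41) and Plk2 (-0.20). For Kif1c the direction depended on the probe, as its dimmer probe had r = 0.57 with Cenpa. Plk2 and Plk3 are Polo-like kinases of stress responses rather than of mitosis.

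**Figure D2:**
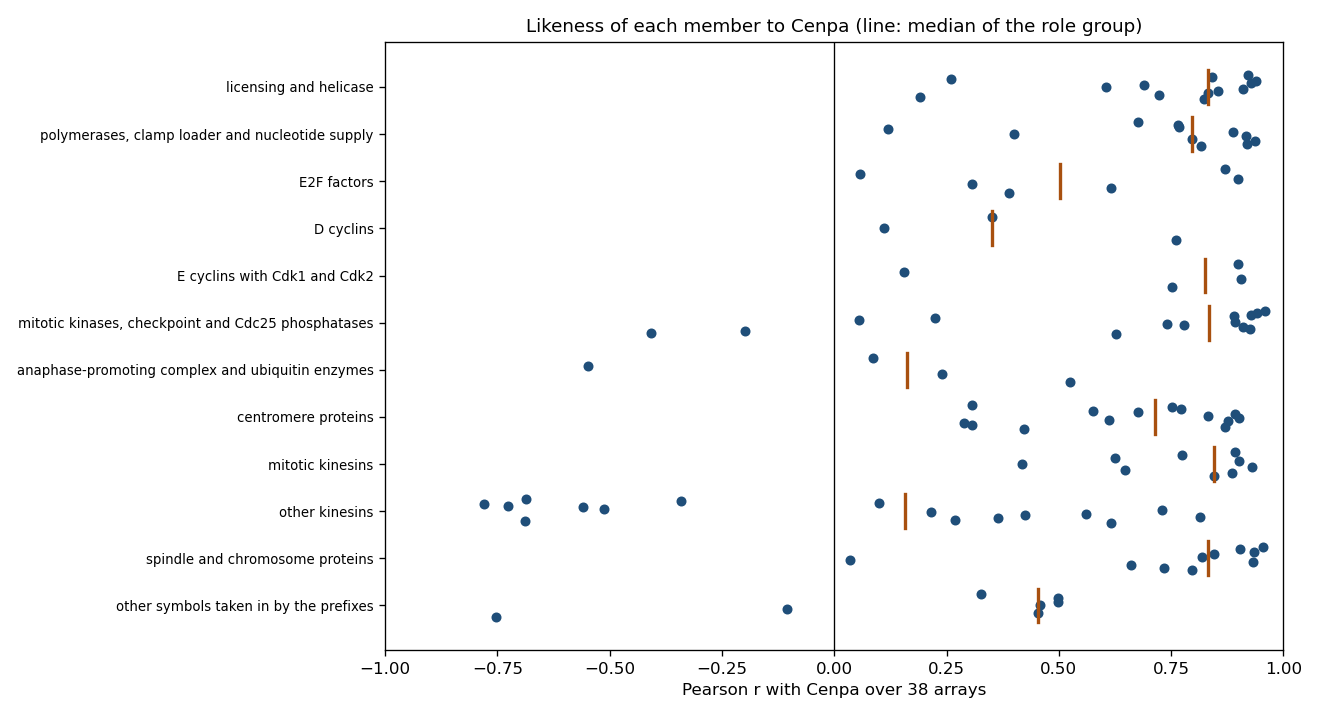
Pearson correlation with Cenpa over 38 arrays (x axis) for each of the other 111 members (points), grouped by role (y axis), with the median of each role as a line. The lines of the licensing, polymerase, E cyclin, mitotic kinase, centromere, mitotic kinesin and spindle roles lie at 0.71 to 0.84. That of the anaphase-promoting complex and ubiquitin enzymes lies at 0.16. The other kinesins spread from -0.78 to 0.81 around a median of 0.16.

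The start regions of members that moved together, and of 1 that moved against them, are shown because cell cycle genes are known to share short promoter words. The cell cycle homology region (CHR, TTTGAA) and the CCAAT box are bound by the DREAM and B-Myb complexes and by NF-Y, and E2F factors bind words such as TTTGGCGC, TTTCGCGC, TTTCCCGC and TTTGCCGC. Each window runs from 250 bases before to 50 bases after the transcription start, in the direction of the gene, from RefSeq on GRCm38.p6. Matches to these letters on either strand are in capitals. The windows are those of Cenpa (chr5:30666636-30666935, plus strand), Top2a (chr11:99024140-99024439, minus strand), Cdk1 (chr10:69352863-69353162, minus strand), Cdca3 (chr6:124829926-124830225, plus strand), Mcm5 (chr8:75109259-75109558, plus strand) and Cdcp1 (chr9:123215989-123216288, minus strand).
Cenpa: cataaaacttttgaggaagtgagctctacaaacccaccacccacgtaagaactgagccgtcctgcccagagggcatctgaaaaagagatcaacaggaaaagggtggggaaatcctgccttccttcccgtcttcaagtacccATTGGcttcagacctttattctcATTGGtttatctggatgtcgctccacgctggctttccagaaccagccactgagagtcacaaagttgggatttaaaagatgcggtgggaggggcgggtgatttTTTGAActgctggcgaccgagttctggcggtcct
Top2a: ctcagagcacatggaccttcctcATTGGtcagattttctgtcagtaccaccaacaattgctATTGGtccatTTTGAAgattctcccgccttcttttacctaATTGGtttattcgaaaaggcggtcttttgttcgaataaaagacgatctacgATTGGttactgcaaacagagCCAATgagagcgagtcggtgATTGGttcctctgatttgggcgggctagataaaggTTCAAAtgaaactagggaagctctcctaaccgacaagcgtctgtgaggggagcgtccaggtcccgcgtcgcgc
Cdk1: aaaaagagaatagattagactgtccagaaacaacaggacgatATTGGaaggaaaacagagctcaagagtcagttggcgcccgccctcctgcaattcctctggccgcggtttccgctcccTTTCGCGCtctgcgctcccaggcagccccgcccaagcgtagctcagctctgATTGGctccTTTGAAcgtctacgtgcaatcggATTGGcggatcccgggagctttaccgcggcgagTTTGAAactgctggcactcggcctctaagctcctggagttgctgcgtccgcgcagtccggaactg
Cdca3: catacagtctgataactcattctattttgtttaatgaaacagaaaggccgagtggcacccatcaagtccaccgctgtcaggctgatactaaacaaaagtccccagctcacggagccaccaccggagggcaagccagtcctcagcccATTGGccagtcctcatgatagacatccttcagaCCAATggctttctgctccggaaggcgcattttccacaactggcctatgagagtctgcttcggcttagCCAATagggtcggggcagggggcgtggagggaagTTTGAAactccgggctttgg
Mcm5: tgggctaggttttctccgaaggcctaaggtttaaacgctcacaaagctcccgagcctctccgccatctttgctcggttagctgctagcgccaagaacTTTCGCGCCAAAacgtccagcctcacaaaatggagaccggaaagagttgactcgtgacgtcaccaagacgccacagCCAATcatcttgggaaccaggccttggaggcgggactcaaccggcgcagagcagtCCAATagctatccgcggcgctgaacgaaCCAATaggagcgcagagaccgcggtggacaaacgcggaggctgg
Cdcp1: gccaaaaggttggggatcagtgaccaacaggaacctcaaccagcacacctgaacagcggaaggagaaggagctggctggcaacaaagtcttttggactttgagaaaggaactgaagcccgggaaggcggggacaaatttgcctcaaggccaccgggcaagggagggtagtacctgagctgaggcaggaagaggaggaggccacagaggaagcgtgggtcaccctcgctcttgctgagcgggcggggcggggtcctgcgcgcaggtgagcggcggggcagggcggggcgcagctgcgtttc
Cenpa and Cdca3 each held 1 CHR word just after the start, at base 17 and base 31 of the transcript, with 2 and 3 CCAAT words upstream. Top2a held 6 CCAAT words and CHR words 179 and 23 bases before the start. Cdk1 held CHR words 71 and 15 bases before the start, 3 CCAAT words and an E2F word. Mcm5, a subunit of the replicative helicase, held no CHR word but 3 CCAAT words and 2 E2F words on opposite strands, which overlap and form 1 run of capitals. Cdcp1 held none of the 3 words, which says only that these letters are not in its window.

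A window was given for 96 of the 112 members, 115 windows in all because some genes have several starts. The CHR letters were in 30.4% of the members' windows and in 17.9% of all 32851 mouse windows of this length. The CCAAT letters were in 61 of the members' 115 windows and in 37.4% of all windows, and an E2F word was in 15.7% and 2.26% of them. By role, 8 of 9 windows of mitotic kinesins held CHR letters, against 1 of 16 of the other kinesins and 0 of 10 of the polymerase and clamp loader genes. E2F words were in 5 of 16 windows of licensing and helicase genes, 2 of 10 of polymerase and clamp loader genes, 2 of 9 of mitotic kinesins and in 0 windows of the other kinesins. CCAAT letters were in 13 of 18 windows of centromere genes, and CHR letters in 4 of 18 of these and in 4 of 16 of licensing and helicase genes. The differences between roles were not tested. These are matches of letters, counted without regard to overlap, and binding was not measured.

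Among the licensing and helicase genes, Mcm2, a helicase subunit, had the widest spread. Mcm2 lay between 9.02 and 11.67 in the controls with a median of 10.24, and read 11.68, 8.86, 10.73 and 12.25 in the B16-WT day 4 group and 10.61, 12.10, 11.77, 9.01 and 12.01 in the day 14 group. The B16-WT arrays thus held both the highest values of Mcm2 and values below the lowest control. Mcm2 lay between 8.96 and 10.48 (median 9.88) in the B16-shTGFb day 4 group and read 10.32, 9.89, 10.74, 8.99 and 11.99 at day 14. In the B16-shVEGF groups it read 9.86, 9.07, 11.85, 9.69 and 11.74 at day 4 and lay between 8.70 and 11.02 (median 9.79) at day 14. Cdc45, which completes the active helicase, had group means from 7.53 ± 0.68 (SD, n = 6) in the B16-shTGFb day 4 group to 8.97 ± 0.87 (n = 4) in the B16-WT day 4 group. Mcm10 ranged from 7.38 on B16-shVEGF day 14 replicate 1 to 11.07 on B16-WT day 14 replicate 2.

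Of the polymerase and nucleotide genes, Rrm2, the small subunit of ribonucleotide reductase, ranged from 6.63 on B16-shTGFb day 4 replicate 2 to 10.95 on B16-WT day 14 replicate 5. Its group means ran from 8.24 ± 0.93 (SD, n = 6) in the B16-shTGFb day 4 group to 9.47 ± 1.34 (n = 5) in the B16-WT day 14 group. Rfc4, a clamp loader subunit, was narrow in the controls at 7.33 ± 0.28 (n = 7) and wide in the B16-WT day 14 group at 8.44 ± 1.39. Pole4, a small subunit of DNA polymerase epsilon, averaged 8.11 ± 0.88 in the controls and 8.87 ± 1.44 in the B16-WT day 14 group. Leaving out the arrays that lacked Dcn, this group differed from the controls by -0.12 in Rrm2, 0.12 in Rfc4 and -0.09 in Pole4.

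E2f1, which turns on replication genes, lay between 8.58 and 10.41 in the controls with a median of 9.76. Its values were 10.64, 8.92, 10.05 and 11.39 in the B16-WT day 4 group and 9.75, 10.80, 10.94, 8.94 and 11.14 in the day 14 group. E2f1 was above every control array on 5 of these 9 arrays and inside the control range on the other 4. It lay between 7.84 and 9.71 (median 9.23) in the B16-shTGFb day 4 group, with 9.54, 9.75, 10.83, 8.80 and 10.87 at day 14. The B16-shVEGF arrays read 9.40, 8.33, 10.96, 9.67 and 10.73 at day 4 and lay between 8.71 and 10.54 (median 9.39) at day 14. E2f4, a factor of repressor complexes in resting cells, varied less, with group means from 8.23 ± 0.39 (SD, n = 7) in the controls to 8.90 ± 0.34 (n = 6) in the B16-shTGFb day 4 group.

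The D cyclins differed among themselves in likeness to Cenpa, with r of 0.76 for Ccnd3, 0.35 for Ccnd1 and 0.11 for Ccnd2. Ccnd2, which drives G1 in many cell types, lay between 10.92 and 12.93 in the controls with a median of 12.67, and read 11.51, 12.16, 13.15 and 13.11 in the B16-WT day 4 group and 12.70, 13.54, 13.18, 11.42 and 12.86 in the day 14 group. In the B16-shTGFb groups it lay between 10.01 and 12.69 (median 11.81) at day 4 and at 12.64, 12.09, 12.63, 12.43 and 12.63 at day 14. In the B16-shVEGF groups it read 12.18, 12.02, 12.66, 11.34 and 9.61 at day 4 and lay between 10.16 and 12.86 (median 12.50) at day 14. Low values of Ccnd2 occurred on single arrays or on a few arrays of most groups, and B16-shVEGF day 4 replicate 5, the lowest for Ccnd2, was among the high arrays for Cenpa. Ccnd1 had group means from 8.75 ± 0.89 (SD, n = 6) to 9.69 ± 0.72 (n = 5), and Ccnd3 from 11.52 ± 0.32 (n = 6) to 12.08 ± 0.71 (n = 4).

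Of the E cyclins, which pair with Cdk2 at the start of replication, Ccne1 ranged from 5.55 on B16-WT day 4 replicate 2 to 9.13 on B16-WT day 14 replicate 5. Ccne2 was detected on 36 of 38 arrays and ranged from 4.34 to 8.03. Cdk2 lay between 10.88 and 13.16 in the controls with a median of 12.40, and read 13.72, 11.21, 12.81 and 12.75 in the B16-WT day 4 group and 12.54, 12.37, 12.58, 10.99 and 13.14 in the day 14 group. Its highest array, B16-WT day 4 replicate 1, was also the highest for Top2a and had Dcn detected.

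Aurka lay between 8.10 and 10.63 in the controls with a median of 9.61. It read 10.61, 8.05, 10.29 and 11.12 in the B16-WT day 4 group and 9.81, 11.40, 11.03, 8.63 and 11.54 in the day 14 group. Day 4 replicate 2 and day 14 replicate 4 were each the lowest of their B16-WT group for Aurka, Mcm2, E2f1 and Cdk1. Aurka lay between 7.69 and 9.82 (median 9.33) in the B16-shTGFb day 4 group and at 9.54, 8.88, 9.96, 8.17 and 10.99 at day 14. It read 8.70, 8.71, 11.12, 9.34 and 10.74 in the B16-shVEGF day 4 group and lay between 7.83 and 10.10 (median 8.94) at day 14. Cdc25c, the phosphatase that activates Cdk1, averaged 6.52 ± 0.59 (SD, n = 7) in the controls and 7.74 ± 1.19 (n = 5) in the B16-WT day 14 group. The difference in Cdc25c was 0.43 without the arrays that lacked Dcn, against 1.22 with all arrays. Plk3 ranged from 6.89 on B16-WT day 14 replicate 5 to 10.67 on replicate 4 of the same group.

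The anaphase-promoting complex tags cyclins and securin for destruction. Its genes Cdc16, Cdc23 and Cdc27 had SDs over the arrays of 0.39, 0.38 and 0.48. The median SD was 0.69 for the members and 0.57 for all genes, and Cdc34 of the same role had 0.61. Cdc16, a scaffold subunit, lay between 8.65 and 9.24 in the controls (median 8.84), and read 9.04, 8.77, 8.60 and 9.18 in the B16-WT day 4 group and 8.91, 9.80, 8.17, 9.16 and 9.58 in the day 14 group. The B16-shTGFb arrays lay between 8.51 and 9.67 (median 8.80) at day 4 and at 8.38, 8.82, 8.85, 8.55 and 8.67 at day 14. The B16-shVEGF arrays read 8.70, 9.56, 8.85, 8.99 and 9.67 at day 4 and lay between 8.62 and 9.76 (median 8.91) at day 14. High values of Cdc16 were scattered over the B16-WT day 14, B16-shVEGF and B16-shTGFb day 4 groups. Cdc27, another subunit, had group means from 7.39 ± 0.54 (SD, n = 6) to 7.92 ± 0.74 (n = 5), and Cdc34, a ubiquitin-conjugating enzyme of the G1 to S step, from 6.48 ± 0.58 (n = 6) to 7.16 ± 0.75 (n = 4).

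The widest centromere genes were Cenpm, Cenpk and Cenpw of the inner kinetochore, and the widest spindle and chromosome genes were Cdca3, Tpx2, which activates Aurora A on the spindle, and Birc5. Cenpm averaged 6.84 ± 0.85 (SD, n = 7) in the controls and 8.15 ± 1.28 (n = 5) in the B16-WT day 14 group, and ranged from 5.10 to 9.53. Cenpw averaged 9.05 ± 0.49 and 10.29 ± 1.23 in the same groups. Cenpk averaged 6.89 ± 0.37 and 7.68 ± 1.86, with its maximum of 10.09 on B16-WT day 14 replicate 2. Tpx2 was detected on 34 arrays and averaged 5.83 ± 0.47 and 6.86 ± 1.49. Birc5 averaged 10.02 ± 0.67 and 11.04 ± 1.15, and Cdca3 10.19 ± 0.66 and 11.19 ± 1.00. In each of these genes the SD of the B16-WT day 14 group exceeded that of the controls. The differences between these groups without the arrays that lacked Dcn were -0.55 for Cenpk and -0.05 for Tpx2. They were 0.61 for Cenpm, 0.55 for Cenpw, 0.40 for Birc5 and 0.55 for Cdca3.

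Kif11, the motor that pushes the spindle poles apart, lay between 7.16 and 8.75 in the controls with a median of 8.19. It read 8.92, 6.88, 9.12 and 9.14 in the B16-WT day 4 group and 8.50, 10.23, 8.74, 7.50 and 9.74 in the day 14 group. The 2 highest Kif11 values of the 38 arrays belonged to arrays without detected Dcn. Kif11 lay between 6.11 and 8.43 (median 7.95) in the B16-shTGFb day 4 group and at 8.04, 7.66, 7.37, 6.99 and 8.57 at day 14. It read 7.63, 7.78, 8.91, 7.25 and 9.24 in the B16-shVEGF day 4 group and lay between 7.22 and 8.64 (median 7.58) at day 14. Kif18a and Kif18b, which trim spindle microtubules, had their highest group means in the B16-WT day 14 group, at 6.40 ± 1.45 and 9.11 ± 0.82 (SD, n = 5). Kif18a was detected on 30 arrays. The B16-WT day 14 group differed from the controls by -0.07 in Kif18a and 0.58 in Kif18b without the arrays that lacked Dcn.

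Kif1a lay between 6.16 and 8.23 in the controls with a median of 7.28. It read 5.67, 7.77, 7.03 and 4.48 in the B16-WT day 4 group and 7.60, 4.35, 6.31, 6.75 and 4.33 in the day 14 group. Its 3 lowest values were those of the 3 arrays without detected Dcn, opposite to Cenpa. Kif1a was detected on 34 of the 38 arrays. Kif1a lay between 6.52 and 7.55 (median 6.83) in the B16-shTGFb day 4 group and at 6.67, 7.77, 6.81, 7.84 and 5.09 at day 14. It read 8.12, 7.29, 5.42, 7.50 and 6.47 in the B16-shVEGF day 4 group and lay between 6.03 and 8.08 (median 7.28) at day 14. Kif21a, a kinesin of the cell cortex and of axons, averaged 10.44 ± 0.26 (SD, n = 7) in the controls and 9.22 ± 1.12 (n = 5) in the B16-WT day 14 group. The difference in Kif21a was -0.45 without the arrays that lacked Dcn, against -1.22 with all arrays. Kif3c, a subunit of kinesin-2, had its highest mean in the B16-WT day 4 group, at 9.48 ± 1.11 (n = 4). Cdcp1 lay between 6.51 and 8.44 in the controls and read 6.09, 8.18, 7.43 and 4.48, and 7.64, 4.45, 6.21, 8.17 and 4.51, in the B16-WT groups at days 4 and 14. Of the other symbols that the prefixes took in, Cdc73, a subunit of the Paf1 complex of transcription, averaged 6.03 ± 0.24 (SD, n = 7) in the controls and 6.92 ± 1.40 (n = 5) in the B16-WT day 14 group. The difference in Cdc73 was -0.01 without the arrays that lacked Dcn. Cdc40, a splicing factor, ranged from 7.02 to 8.72.

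The mean over the 112 members ran from 7.86 on B16-shVEGF day 14 replicate 1 to 9.40 on B16-WT day 14 replicate 2. The 3 arrays without detected Dcn had the 3 highest means, at 9.20 to 9.40, and the highest of the other 35 was 9.13. The 4 arrays of low Dct had means of 7.86 to 8.24, in the lower part of the range of the rest. By group the member mean was 8.38 ± 0.27 (SD, n = 7) in the controls, 8.69 ± 0.52 (n = 4) and 8.81 ± 0.56 (n = 5) in the B16-WT groups at days 4 and 14, 8.26 ± 0.25 (n = 6) and 8.35 ± 0.34 (n = 5) in the B16-shTGFb groups, and 8.48 ± 0.51 (n = 5) and 8.27 ± 0.28 (n = 6) in the B16-shVEGF groups. Differences between groups made up 22.9% of the variance of this mean. For the means of the marker lists this share ran from 10.1% (pigment cells) to 34.6% (endothelium), and these shares were not tested.

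**Figure D3:**
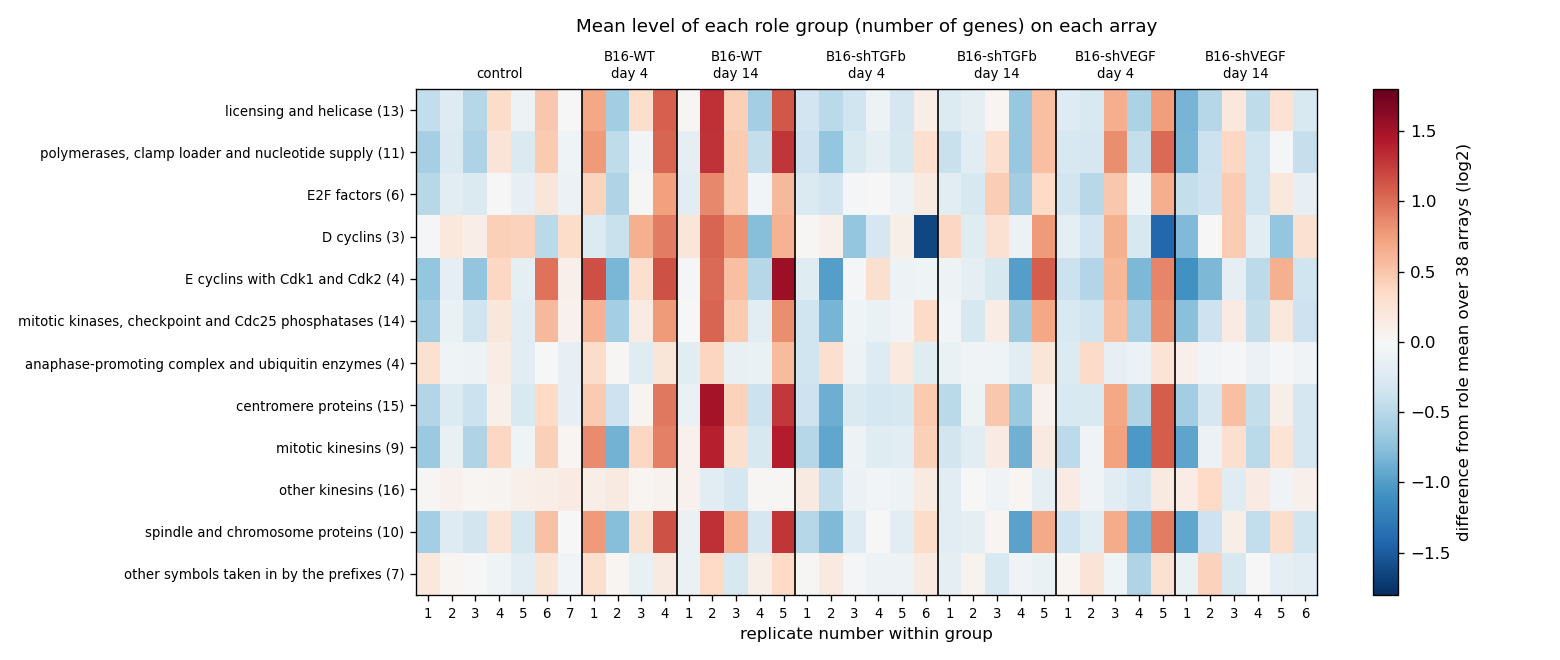
Mean level of the members of each role (y axis, number of genes in brackets) on each of the 38 arrays (x axis, replicate numbers within the 7 groups), as the log2 difference from that role's mean over all arrays (colour). Most replication and mitosis roles are high on B16-WT day 4 replicate 4 and B16-WT day 14 replicates 2 and 5. The means of the other kinesins and of the anaphase-promoting complex role vary little. Single members of these roles vary more, such as Kif1a (SD 1.02 over the arrays) and Cdc34 (0.61).

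On the 3 arrays without detected Dcn, 26 of the 112 members (23.2%) were above all 35 other arrays, as were 8.95% of all genes. They included 5 of 11 polymerase and clamp loader genes, 5 of 15 centromere genes, 4 of 13 licensing and helicase genes and 4 of 14 kinases and checkpoint genes, among them Cenpa, Mcm2, Cdc45, Aurka, Cdc25c, Rfc4, Pole4, Cenpm and Tpx2. Only Cdcp1 and Kif1a were below all other arrays (1.79%), against 14.5% of all genes. This describes those arrays and is no comparison of the study's groups. The mean of the members went with the mean of the pigment markers over the 38 arrays (r = 0.68, and 0.70 over the 35 arrays with Dcn) and against those of connective tissue (r = -0.86 and -0.86), adipocytes (-0.85 and -0.76), muscle (-0.81 and -0.66), endothelium (-0.81 and -0.72) and macrophages (-0.75 and -0.80). Other host lists shared this less: epidermis had r of -0.69 and -0.37, T cells -0.49 and 0.06, and B cells (1 gene) -0.29 and -0.18. Hair follicle markers went the other way, with 0.27 and 0.59. These lists share the arrays and the normalization, and their part in the group differences was not tested.

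The design asked whether tumor microenvironment tissue differs from control tissue, whether it changes from day 4 to day 14, and whether the hairpin lines differ from B16-WT. In all 15 comparisons, limma called 0 of 112 members at an adjusted p under 0.05, and 0% of all 9890 genes. The same held for the test of any difference among the 7 groups, where 4 members (3.57%) and 6.41% of all genes had an unadjusted p under 0.05. Groups accounted for a median of 19.4% of a member's variance and 18.0% of that of all genes. The comparisons with control share the 7 control arrays, and those with B16-WT share the B16-WT arrays.

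At day 14, 94 of 112 members were higher in the B16-WT group than in the controls, with a median difference of 0.46, against 0.04 for all genes. At an unadjusted p under 0.05 stood 25 members (22.3%) and 25.1% of all genes, so that the share did not stand above the background. By direction these were 21 higher members, where 8.28% of all genes were higher, and 4 lower ones, where 16.8% of all genes were lower. The smallest adjusted p among the members was 0.143, for E2f3 (difference 1.22 ± 0.45, SE, 5 against 7 arrays). Cdk1 differed by 1.10 ± 0.50 (95% interval 0.08 to 2.12, adjusted p = 0.175, limma) and Cenpa by 0.66 ± 0.30 (0.04 to 1.27, adjusted p = 0.177). Top2a differed by 0.44 ± 0.32 (-0.22 to 1.09, adjusted p = 0.361) and Mcm2 by 0.89 ± 0.61 (-0.36 to 2.14, adjusted p = 0.333). In the other direction, Kif1a differed by -1.37 ± 0.56 (-2.51 to -0.22, adjusted p = 0.152).

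This difference was smaller without the arrays on which Dcn was not detected. The B16-WT day 14 group then kept 3 arrays, the members' median difference from the controls was 0.06 and 62 of 112 were higher, with 0 called. Cenpa then differed by 0.29, Cdk1 by 0.63, E2f3 by 0.67, Mcm2 by 0.25, Kif11 by 0.27 (0.97 with all arrays), Rfc4 by 0.12 (1.11), Tpx2 by -0.05 (1.04) and Kif1a by -0.35. Leaving out B16-WT day 14 replicate 1 instead gave 11 members among 1443 genes called, and leaving out replicate 4 gave 7 among 1284. Both of these arrays had Dcn detected and lay near the controls in most members.

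**Figure D4:**
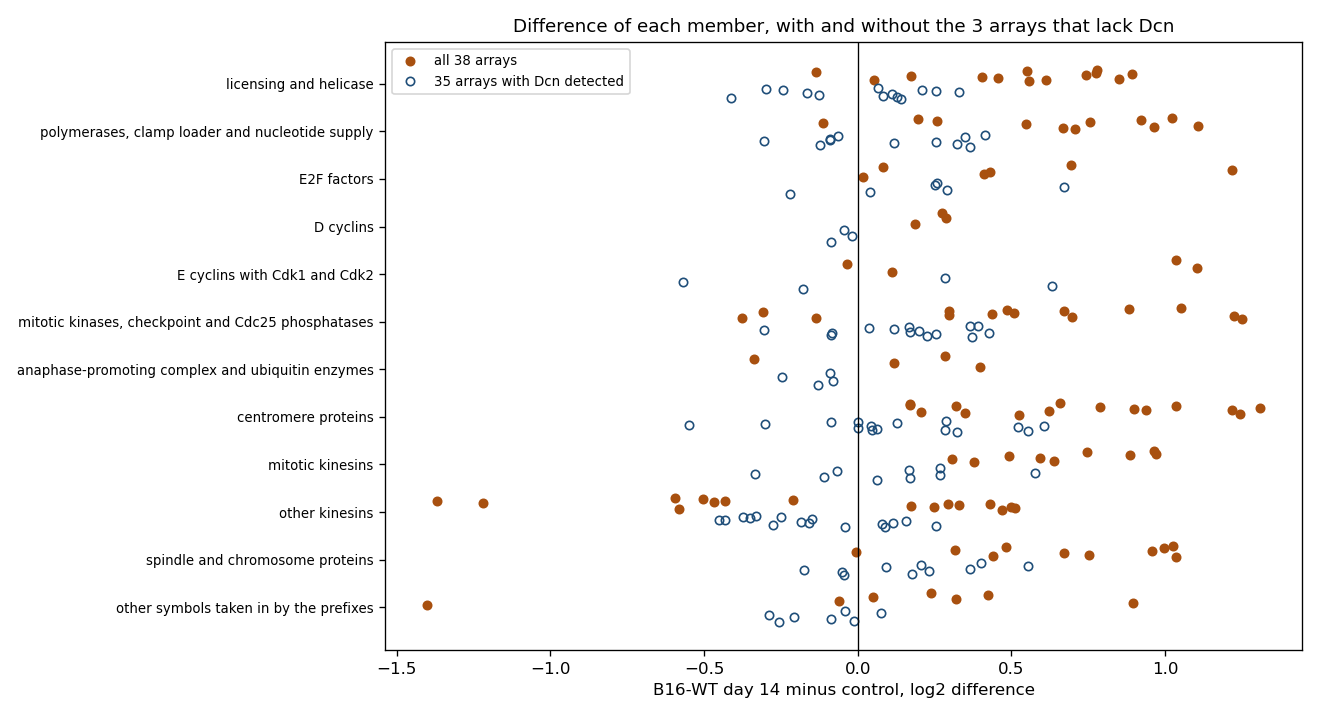
Log2 difference between the B16-WT day 14 group and the controls (x axis) for each of the 112 members (points), grouped by role (y axis), with all 38 arrays (filled) and with the 35 arrays on which Dcn was detected (open). The filled points of most roles lie to the right of 0, with a median over all members of 0.46, and the open points lie around 0, with a median of 0.06.

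With all arrays, the medians of the other groups were nearer to 0 than that of B16-WT day 14, which did not hold without the arrays that lacked Dcn. The median difference of the members from control was 0.38 for B16-WT day 4 (95 of 112 higher, 0.17 without the array that lacked Dcn), -0.14 and -0.01 for B16-shTGFb at days 4 and 14, and 0.16 and -0.11 for B16-shVEGF. At an unadjusted p under 0.05 stood 0, 5, 0, 0 and 0 members in these 5 comparisons, against 1.97%, 2.99%, 1.26%, 1.08% and 0.222% of all genes. Leaving out 1 array at a time gave -0.20 to -0.06 and -0.13 to 0.12 for the B16-shTGFb groups, and -0.06 to 0.33 and -0.19 to -0.03 for the B16-shVEGF groups, so that 2 of these 4 medians had no settled direction. From day 4 to day 14 the median difference was 0.12 in B16-WT tissue (81 of 112 positive), and without the arrays that lacked Dcn it was -0.08 (39 positive). It was 0.07 in B16-shTGFb and -0.24 in B16-shVEGF tissue, and leaving out 1 array gave 0.00 to 0.23 and -0.39 to -0.09. These 3 comparisons had 0, 5 and 0 members at an unadjusted p under 0.05, against 0.637%, 4.86% and 0.617% of all genes.

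Against B16-WT, the members were mostly lower in the hairpin groups, and no member passed the test. At day 14 the median difference was -0.63 for B16-shVEGF (15 of 112 positive) and -0.48 for B16-shTGFb (14 positive). An unadjusted p under 0.05 was reached by 33 lower and 3 higher members for B16-shVEGF, where 9.14% of all genes were lower and 16.6% higher, and by 14 lower members for B16-shTGFb, where 6.55% were lower and 7.66% higher. In both directions together these were 25.8% and 14.2% of all genes. Cenpa was 0.86 lower in the B16-shVEGF than in the B16-WT group (difference -0.86 ± 0.31, SE, 6 against 5 arrays, 95% interval -1.49 to -0.22, adjusted p = 0.14, limma), Aurka differed by -1.49 ± 0.60 (adjusted p = 0.149) and Mcm10 by -1.34 ± 0.52 (adjusted p = 0.145). Without the arrays that lacked Dcn these differences were -0.49, -0.84 and -0.78, and the members' medians were -0.13 for B16-shVEGF and -0.07 for B16-shTGFb. For B16-shVEGF, leaving out B16-WT day 14 replicate 1 gave 8 called members among 1238 genes and leaving out replicate 4 gave 23 among 1636, while with all arrays the count was 0.

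At day 4 the median difference from B16-WT was -0.51 for B16-shTGFb (18 positive) and -0.22 for B16-shVEGF (19 positive), and without the array that lacked Dcn it was -0.29 and 0.00. For B16-shTGFb, 5 lower members and 1 higher member had an unadjusted p under 0.05, against 3.95% and 4.25% of all genes (8.2% in both directions). For B16-shVEGF it was 0 members, against 2.53% of all genes. Cdc45 differed by -1.44 ± 0.53 (SE, 6 against 4 arrays, 95% interval -2.52 to -0.37, adjusted p = 0.506, limma) and E2f1 by -1.20 ± 0.51 (adjusted p = 0.506). Whether the difference from B16-WT changed between the days was tested as an interaction, which had a median of -0.01 for B16-shTGFb (0.20 without the arrays that lacked Dcn) and -0.35 for B16-shVEGF (-0.12 without them) and 0 called members, with 2 and 1 at an unadjusted p under 0.05 against 1.39% and 1.02% of all genes.

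Dct was set against the members within groups. Its slope was fitted in limma beside the group means, so that it uses only differences between arrays of 1 group. Over all 38 arrays 29 of 112 members (25.9%) were called, against 17.7% of all genes: 28 rose with Dct, where 11.9% of all genes did, and only Cdc16 fell, where 5.82% did. The called members included 3 of 4 among the E cyclins with Cdk1 and Cdk2, 5 of 15 centromere genes and 3 of 9 mitotic kinesins. They also included 3 of 13 licensing and helicase genes and 3 of 16 other kinesins (Kif3c, Kif24 and Kif3a, all rising), but 0 of 3 D cyclins. E2f1 had the smallest adjusted p, with a slope of 0.24 ± 0.05 (SE) log2 units per log2 unit of Dct (adjusted p = 0.00316). Cdk2 (0.22 ± 0.05, adjusted p = 0.00565), Rrm2 (0.32 ± 0.08, adjusted p = 0.00771) and Aurka (0.27 ± 0.07, adjusted p = 0.00908) followed. Cenpa rose by 0.12 ± 0.04 (adjusted p = 0.0286), and Top2a had 0.09 ± 0.04 and was not called (adjusted p = 0.139). The slope of Cdc16 was -0.11 ± 0.03 (adjusted p = 0.0111). All of these member calls were lost with a block on replicate number, and fewer remained without B16-shVEGF day 4 replicate 2. Both settings are given further below.

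The 4 arrays of low Dct, 1 in each of 4 groups, set the scale of these slopes. Without them 42 members were called among 12.4% of all genes, 40 of them higher (8.79% of all genes) and 2 lower (3.6%). The median slope of the members was then 0.47, against 0.01 for all genes, and 91 of 112 were positive. Mcm10 had a slope of 1.31 (adjusted p = 0.000404), Cdk2 1.02 (0.00159), Aurka 1.35 (0.00286), Cdk1 1.16 (0.00429), Cenpa 0.68 (0.00581) and Top2a 0.63 (0.0234). The 2 members that fell were among the other kinesins, Kifc2 (-0.84, adjusted p = 0.00523) and Kif1c (-0.70, adjusted p = 0.0338). Kif3c, of the same role, rose (0.66, adjusted p = 0.0467). The dimmer Kif1c probe, detected on 38 arrays, had r = -0.09 with the brightest one. Cdc16 no longer followed Dct, with a slope of -0.02 (adjusted p = 0.916).

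Among these 34 arrays, 4 had Dct between 12.05 and 13.24: B16-shVEGF day 14 replicate 1, B16-WT day 14 replicate 4, B16-shTGFb day 14 replicate 4 and B16-WT day 4 replicate 2. Each was the lowest array of its group for Cenpa, Cdk1, Mcm2 and Aurka, and the calls were lost without them. Leaving out the 2 of these farthest from the median of Dct as well gave 7 called members and 0.981% of all genes, with a median slope of 0.58. Over the 30 arrays with Dct between 13.72 and 14.53, 0 members and 0% of all genes were called, 83 of 112 slopes were positive with a median of 0.36, and 5 members had an unadjusted p under 0.05, against 3.61% of all genes. On these 30 arrays Dct ranked between the highest and the 75th gene of its array, near the top of the scale.

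Across the 34 arrays, without regard to group, Mcm10 had a Pearson correlation of 0.71 with Dct (permutation p = 1e-05, the smallest that 100000 permutations can give) and a Spearman correlation of 0.59 (permutation p = 0.00023). It was 0.66 without the 2 arrays farthest from the median of Dct and 0.47 over the 30 arrays. Cenpa had r = 0.58 (permutation p = 0.00023) and rho = 0.50 (permutation p = 0.00275), with 0.49 without those 2 arrays and 0.28 over the 30. Top2a had r = 0.53 (permutation p = 0.00022) and rho = 0.62 (permutation p = 0.00013), with 0.52 and 0.48. Kif1a had r = -0.36 (permutation p = 0.0393) and rho = -0.44 (permutation p = 0.0107), with -0.36 and -0.25. The slope of Kif1a on Dct was not called over the 34 arrays (adjusted p = 0.0654, limma) or over all 38 (adjusted p = 0.698). Cdk2, which was named for its slope on Dct, had r = 0.72 over the 34 arrays and 0.54 over the 30, given as a description. The relation was computed for 42 members, and the permutation p-values are not adjusted for that number. The 38 of them that were named as markers or for their spread had a median r of 0.41 over the 34 arrays and 0.20 over the 30, and the values adjusted over all genes are those of the slopes above. The 3 arrays without detected Dcn did not lie at the top of Dct, with 14.07, 14.37 and 13.94, while their Cenpa was the highest of all.

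**Figure D5:**
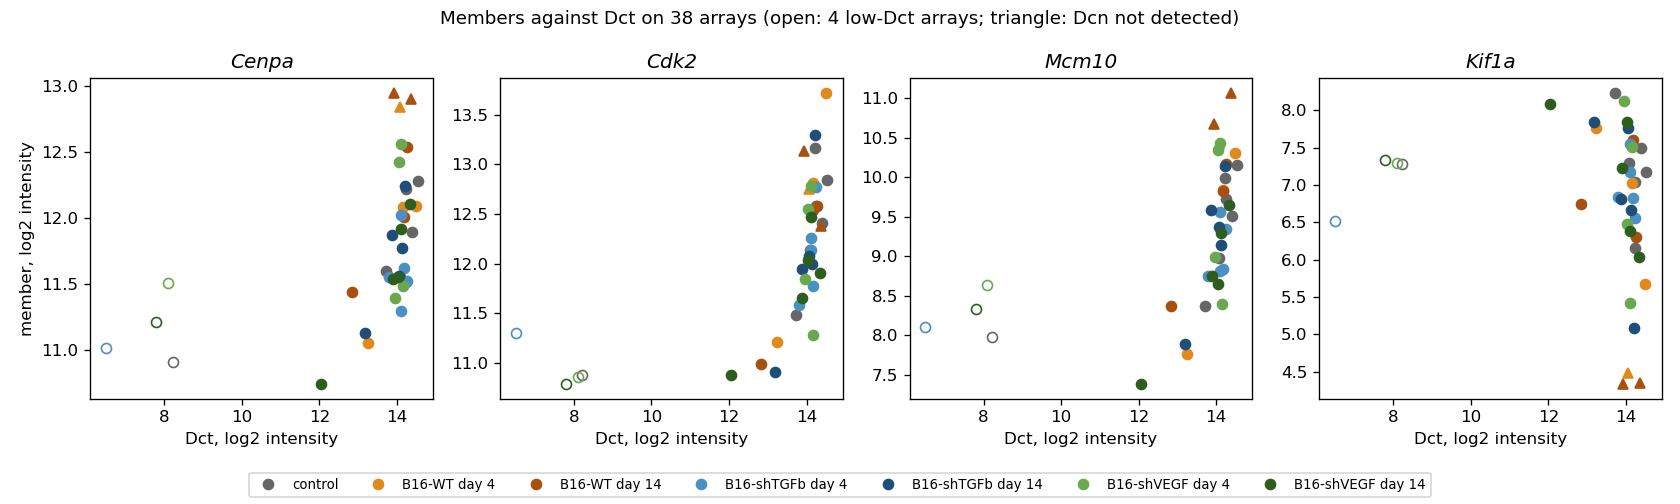
Log2 normalized intensity of Cenpa, Cdk2, Mcm10 and Kif1a (y axes) against that of Dct (x axes) on the 38 arrays, coloured by group, with the 4 arrays of low Dct as open circles and the 3 arrays without detected Dcn as triangles. In the first 3 panels the arrays with Dct at 12.05 to 13.24 lie low and those at 13.72 to 14.53 spread upward, and the open circles at 6.50 to 8.22 lie in the lower part of each of these panels.

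Other genes of the cycle, from a list of 83 of which 49 were measured, showed the same pattern. In the 15 comparisons 0 of 49 were called, and against control at day 14 the B16-WT group was higher in 42 with a median difference of 0.53. In that group the mean of the 49 was 9.68 and 9.84 on replicates 2 and 5, which lacked detected Dcn. It was 8.57 to 9.25 on the rest of the group, against 8.36 to 9.23 in the controls. Their median r with Cenpa was 0.76, with 20 above 0.8 and 6 below 0. Foxm1, the factor of the mitotic wave, had r = 0.94 and averaged 8.58 ± 0.94 (SD, n = 7) in the controls and 9.66 ± 1.35 (n = 5) in the B16-WT day 14 group. Its highest value, 10.93, was on B16-WT day 14 replicate 5, where Dcn was not detected. Spc25, a kinetochore subunit that grips microtubules, had r = 0.93. The 5 measured inhibitors of cyclin-dependent kinases varied in likeness to Cenpa, from Cdkn2d (r = 0.87) over Cdkn2c (0.49), Cdkn1a (0.07) and Cdkn1b (nearly 0) to Cdkn1c (-0.74). Cdkn1c, the inhibitor p57, ranged from 5.39 on B16-WT day 14 replicate 5 to 11.29. Among the retinoblastoma family, Rbl1 had r = 0.68, Rb1 -0.15 and Rbl2 -0.23. On Dct, 11 of the 49 rose and 0 fell over all 38 arrays (background 11.9% and 5.82%).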

How the data were processed

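Total RNA of 38 tissue samples was measured on Illumina bead arrays. The deposited non-normalized table gives signal intensity on a linear scale for 45272 probes, with a detection p-value beside each. The authors' deposited normalized table holds log2 values of 16247 probes, equal to quantile-normalized signals on the log2 scale with no background subtracted (largest difference 5e-14). BeadStudio and limma were used per the submitters' processing notes. Their versions are not given in the sources used here.

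The signals were background-corrected in limma 3.58.1 (R 4.3.3) by the normal-exponential model with detection p-values (offset 16), quantile-normalized over all probes and taken as log2. A single gene symbol was annotated for 14836 probes, several for 5 and none for 1406. Detection at p under 0.05 on at least 4 arrays removed 0 named probes. The brightest probe stood for each gene, giving 9890 genes. Of 63 dimmer probes of 39 members, 47 had r above 0.5 with the brightest one and 2, of Kif3b and Kif1c, were negative.

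Group means over all 38 arrays were fitted with lmFit and eBayes, and 15 comparisons were read from this fit. Benjamini-Hochberg adjustment ran over all genes, with adjusted p under 0.05 as the call. The slope on Dct was fitted beside the group means over 9889 genes. P-values measure the spread between arrays. The fit was also run on simulated data with independent normal noise for each gene, so without the correlated genes and outlying arrays of these data. Correlations used 100000 permutations, two-sided. RefSeq entries matched all 112 members by Entrez identifier. Alternatives were the offset, the authors' normalized values, filters, array weights, covariates, leaving out arrays, and a block on replicate number.

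Genes were named by a rule: the markers, the 3 members of each role with the widest spread among those detected on at least 19 arrays, up to 10 members called in a comparison, the 5 largest and 5 smallest test statistics of the slope on Dct, and 5 other cycle genes of widest spread. Members given for their correlation with Cenpa, Mcm5, and genes named as present in small counts were picked with their values in view. Likewise, the members, roles and lists were chosen with earlier results of these data known.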

Additional observations from a re-analysis of the deposited data

Results flagged for a closer look

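Each named gene was examined in each group for a single array standing far from the others by Dixon's ratio. Of 420 sets of values, 27 were flagged, where chance flags about 1 in 20. Dct itself stood apart on control replicate 1 (8.222), B16-WT day 14 replicate 4 (12.84), B16-shTGFb day 4 replicate 2 (6.496), B16-shVEGF day 4 replicate 2 (8.096) and B16-shVEGF day 14 replicate 2 (7.799), low in each case. On 2 of these arrays the members Cdc16 and Pole3, a small subunit of DNA polymerase epsilon, stood high: Cdc16 was 9.242 and Pole3 9.656 on control replicate 1, and Cdc16 was 9.764 on B16-shVEGF day 14 replicate 2, where Cdc40, a splicing factor taken in by the prefix, was also high at 8.206. On B16-shTGFb day 4 replicate 2, Cdk1 was low at 8.644, Cdca3 at 8.399, Kif21a at 8.085 and Foxm1 at 6.632.

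Low single values elsewhere were Ccnd2 on control replicate 6 (10.92), Plk3 on control replicate 5 (7.287), Kif18a on control replicate 3 (4.762), Kif11 on B16-WT day 4 replicate 2 (6.884), Kif21a on B16-WT day 4 replicate 4 (7.738), Cdc27 on B16-WT day 14 replicate 4 (6.907), Ccne2 on B16-shTGFb day 14 replicate 3 (4.343) and Cdc23 on B16-shTGFb day 14 replicate 5 (6.788). High single values were E2f4 on B16-shVEGF day 4 replicate 5 (9.516) and Kif1c on B16-WT day 4 replicate 2 (8.043). Cdkn1b stood low on B16-WT day 4 replicate 1 (5.077), B16-WT day 14 replicate 4 (5.45), B16-shTGFb day 14 replicate 3 (7.378) and B16-shVEGF day 14 replicate 5 (5.236).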

How the results depend on the processing

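Of 826 alternative values, 28 moved by more than the tolerance (1.5 times for a count, and 0.389, the SD of the member mean between arrays of a group, for a median difference). With or without moving past it, 34 of 334 alternative values of a median difference had the other sign, in 8 of the 15 comparisons, so only 7 comparisons kept 1 direction throughout. In the comparison of B16-WT day 14 with control the members' median difference of 0.46 was 0.063 without the 3 arrays lacking Dcn and -0.025 with Dcn as a covariate, which was added after seeing the data; for B16-WT day 4 it was -0.018 with that covariate. Against B16-WT at day 14 the medians without the 3 arrays and with the covariate were -0.074 and -0.057 for B16-shTGFb, and -0.125 and -0.126 for B16-shVEGF. Array weights gave 8 called members for B16-shTGFb day 4 against control (775 genes), 2 for B16-shTGFb day 14 against day 4 (100 genes) and 14 for B16-shTGFb against B16-WT at day 4 (849 genes). Leaving out single arrays gave 0 to 11 called members for B16-WT day 14 against control and 0 to 23 for B16-shVEGF against B16-WT at day 14.

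The 29 members called on Dct became 68 (5001 genes, median slope 0.13) with the pigment marker mean in place of Dct, and 17 (835 genes, slope 0.11) without the 2 arrays farthest from the median. Leaving out 1 array gave 9 (without B16-shVEGF day 4 replicate 2, 570 genes) to 32, with 17 without control replicate 1 or without B16-shVEGF day 14 replicate 2. Settings added after seeing the data gave 42 (slope 0.47) without the 4 arrays of low Dct, 7 (0.58) without 6 arrays and 0 (0.36) without 8. The median slope was 0.33 without the 4 arrays of low Dct and the 3 lacking Dcn. A replicate block gave 0 members (41 genes, slope 0.054). The deviations of 102 same-numbered pairs had a median r of 0.08 (-0.81 to 0.75), against -0.03 for pairs of different numbers. Of the 38 arrays, 4 correlated best with their own number. The labels do not say what a shared number stands for, and a batch shared by some numbers was not tested. The number 2 is carried by 3 of the 4 arrays of low Dct. The block changed no other call. Values near background limit the members detected on fewer than 38 arrays.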

Other observations

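Ccnd2, the cyclin D2 gene, and Cdkn1b, the inhibitor p27 that binds cyclin D and cyclin E kinases, were low on the same arrays, a pattern noticed after the values were seen. Ccnd2 lay at 9.61 to 11.51 on 9 arrays and at 11.76 to 13.54 on the other 29. Cdkn1b lay at 4.71 to 6.52 on those 9 arrays and at 7.33 to 9.08 on the other 29. The 9 arrays were spread over 6 of the 7 groups. Over the 38 arrays the correlation of Ccnd2 with Cdkn1b was 0.90, which ranked as number 6 of 9889 genes, while with Ccnd1 it was 0.81, with Dcn -0.23 and with Dct -0.04. The genes most like Ccnd2 were Pdap1 (0.94), Rabl6 (0.93), Hps4 (0.93), Wwc2 (0.90) and Usp37 (0.90). Of the marker lists, T cells (r = -0.50) and hair follicle (-0.44) had the strongest correlations with Ccnd2. The hair follicle mean lay at 10.70 to 12.81 on 8 of the 9 arrays low in Ccnd2 and on 7 of the other 29, and at 8.10 or lower on the rest. These correlations describe arrays that share a normalization, and no cause was tested.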
